A study of Homo sapiens with 8 samples.

Results

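The BCL2 family of apoptosis regulators was followed in MDA-MB468 and BT549, 2 established human triple-negative breast cancer (TNBC) cell lines, through the transcripts of 10 genes taken by gene symbol from a count table of 55679 gene identifiers. The members were the anti-apoptotic genes BCL2, BCL2L1 and MCL1, the BH3-only genes BCL2L11, BBC3, PMAIP1, BIK and BMF, and the effectors BAX and BAK1. All 10 were in the table, and all 10 passed the filter on low counts that left 19693 genes for testing. BBC3 was listed on 3 rows with the same counts and was used once.

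RNA sequencing covered 8 libraries, 1 per condition. Each line was sequenced as parental cells and as CE cells, a derivative chronically exposed to stepwise increasing Acetalax (oxyphenisatin acetate, a former laxative), kept at 40 μmol/L and then without the drug for 2 weeks. Both kinds of cells were sequenced as untreated controls and after 6 hours in 1 μmol/L Acetalax. A background is a line in 1 of these states, and 1 CE derivative per line stands for acquired resistance. Because no condition was sequenced more than once, the 4 pairs of libraries within each comparison served as replicates. The p-values measure the spread between those pairs, with a variance partly shared over all genes, and not the spread between repeats of a condition. All pairs come from the same 2 lines and 1 CE derivative of each, so they are not independent.

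Proteins of this family decide whether the outer mitochondrial membrane is permeabilized. The anti-apoptotic proteins bind and restrain the effectors BAX and BAK1, which form the membrane pores through which cytochrome c leaves. BH3-only proteins respond to stress and occupy the groove of the anti-apoptotic proteins or engage the effectors. PMAIP1 (NOXA) is selective for MCL1, BCL2L11 (BIM) and BBC3 (PUMA) bind all of the anti-apoptotic members, and MCL1 is a short-lived protein with a short-lived transcript. Acetalax is studied in these cells as an agent of oncosis, a swelling form of cell death distinct from apoptosis.

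The promoters of the BH3-only genes whose counts differed most between treated and control libraries are shown here, as the 250 bases before the RefSeq transcription start (GRCh38.p14 table). Entries matched 8 of the 10 members, with 10 sequences, and each sequence occurred at 1 place in GRCh37, the assembly behind hg19, whose coordinates are given. MCL1 and BIK had no entry. Capitals mark the core of the cAMP response element (TGACG), the AP-1 site (TGANTCA), the FOXO site (GTAAACA) and the E-box (CACGTG), each searched on both strands.
PMAIP1, chr18:57566978-57567227, plus strand: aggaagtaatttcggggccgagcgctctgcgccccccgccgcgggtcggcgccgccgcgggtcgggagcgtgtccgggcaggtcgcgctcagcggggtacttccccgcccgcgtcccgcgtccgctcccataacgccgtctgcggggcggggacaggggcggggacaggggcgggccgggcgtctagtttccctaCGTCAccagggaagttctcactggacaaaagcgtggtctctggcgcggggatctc
BCL2L11, chr2:111878241-111878490, plus strand: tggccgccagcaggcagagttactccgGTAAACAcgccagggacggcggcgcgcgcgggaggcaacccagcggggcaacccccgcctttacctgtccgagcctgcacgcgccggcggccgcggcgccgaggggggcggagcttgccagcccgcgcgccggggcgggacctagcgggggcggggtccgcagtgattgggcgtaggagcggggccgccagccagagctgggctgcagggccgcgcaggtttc
BBC3, chr19:47735925-47736174, minus strand: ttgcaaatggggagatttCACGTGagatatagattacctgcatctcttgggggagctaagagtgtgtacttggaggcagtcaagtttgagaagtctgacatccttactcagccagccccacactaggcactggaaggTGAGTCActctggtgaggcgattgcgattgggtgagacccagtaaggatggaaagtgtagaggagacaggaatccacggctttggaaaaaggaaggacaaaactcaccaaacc
BMF, chr15:40401081-40401330, minus strand: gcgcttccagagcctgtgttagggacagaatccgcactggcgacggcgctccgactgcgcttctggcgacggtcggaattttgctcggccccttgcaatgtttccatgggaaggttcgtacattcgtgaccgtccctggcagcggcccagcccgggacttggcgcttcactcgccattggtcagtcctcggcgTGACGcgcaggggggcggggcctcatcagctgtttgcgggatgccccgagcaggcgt

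The PMAIP1, BBC3 and BMF windows lie across the start of the gene as listed in the count table, and the BCL2L11 window lies inside the listed gene. PMAIP1 has 1 TGACG match, on its minus strand from 55 to 51 bases before the start. The BMF sequence shown has 1 from 57 to 53 bases before its start. Another BMF sequence, chr15:40399168-40399417, lies inside the listed gene and holds none of the marked motifs. Of 35116 promoters in the table, 21.2% hold this core, which is also part of the full element TGACGTCA that no member holds (1.65% of promoters). BCL2L11 has 1 FOXO match from 223 to 217 bases before the start, a motif found in 2.98% of promoters. BBC3 has 1 AP-1 match from 113 to 107 bases and 1 E-box from 232 to 227 bases before the start, motifs held by 6.57% and 6.34% of promoters. BAX has 4 E-boxes. These are matches of letters and say nothing of which factor binds.

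The libraries held from 42261122 to 54241728 counts on genes, a 1.28-fold range, so that depth was similar throughout. ESR1 and PGR, the hormone receptor genes that TNBC lacks, stayed at or below 5.15 CPM (counts per 1000000 counts on genes) in all libraries, whereas ERBB2, the third gene of the triple-negative definition, was at 44.5 to 95.2 CPM in MDA-MB468 and 41.2 to 89.0 CPM in BT549. The 6 epithelial markers summed to between 5200 and 7868 CPM in MDA-MB468 and to between 8.02 and 90.5 CPM in BT549, and the 5 mesenchymal markers to between 15.6 and 55.7 CPM in MDA-MB468 and between 3704 and 5071 CPM in BT549. The 4 leukocyte markers summed to between 6.43 and 47.2 CPM in MDA-MB468, nearly all from CD14, and to between 1.44 and 2.92 CPM in BT549, with CD3E at 0 in all 8 libraries. With scaling by total counts the median log2 ratio of all tested genes was -0.21 in the BT549 CE pair of treated and control libraries and -0.05 after TMM scaling. Member CPM ratios below are not corrected for that shift unless TMM scaling is named. In that pair BCL2L1 was at -0.38, and at -0.22 after TMM scaling, and MCL1 was at 0.89 and 1.04.

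**Figure D1:**
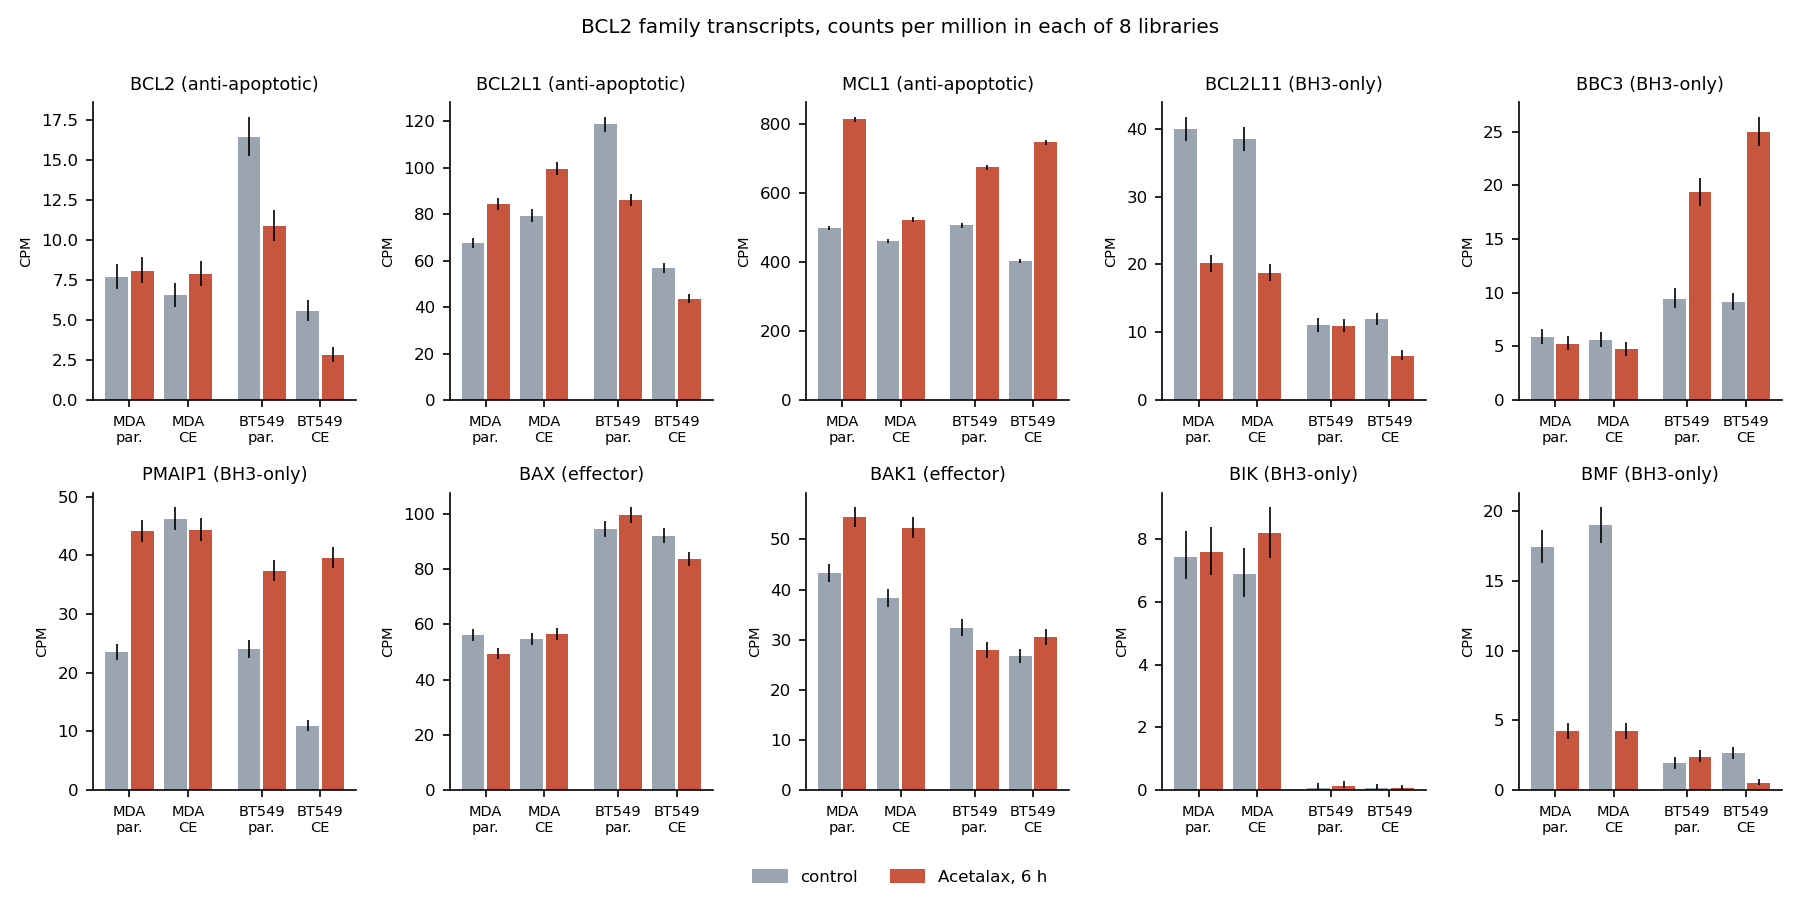
CPM of the 10 genes in the 8 libraries, 1 panel per gene, with control libraries in grey and Acetalax-treated libraries in red (MDA, MDA-MB468; par., parental). Bars start at 0 and error bars are 95% Wilson intervals, which cover counting error only. MCL1 is higher in the treated library of all 4 backgrounds, BBC3 in both BT549 backgrounds, and BIK has at most 6 counts in BT549.

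Levels of different genes were compared as FPKM, which scales counts by the merged exon length of a gene and by the counts on genes in the library. MCL1 was the most abundant member in every library, with FPKM from 64.8 in untreated BT549 CE cells to 131 in treated parental MDA-MB468 cells. It made up between 73.3% and 91.9% of the summed FPKM of the anti-apoptotic members. BCL2L1 (BCL-XL) ranged from 10.4 to 28.3 FPKM. BCL2 itself was scarce, from 0.223 to 1.31 FPKM, between 0.170% and 1.18% of that sum.

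PMAIP1 led the 5 BH3-only members in all 8 libraries, with 5.03 to 21.2 FPKM and from 36.4% to 68.6% of their summed FPKM. BID, a BH3-only gene outside the members, is not in these sums. In CPM, which is not scaled by gene length, BID was above PMAIP1 in every library except treated BT549 CE cells. It was at 121 CPM in parental MDA-MB468 controls, against 23.5 CPM for PMAIP1. In treated BT549 CE cells it was 35.8 CPM, against 39.6 CPM for PMAIP1. BIK was next in parental MDA-MB468 control cells with 26.5% of the sum, whereas in BT549 it gave between 0.230% and 0.760%. BMF had the lowest FPKM of the BH3-only members in MDA-MB468 after treatment. Effector levels were intermediate, with BAX between 19.1 and 38.5 FPKM and BAK1 between 12.1 and 24.6 FPKM.

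**Figure D2:**
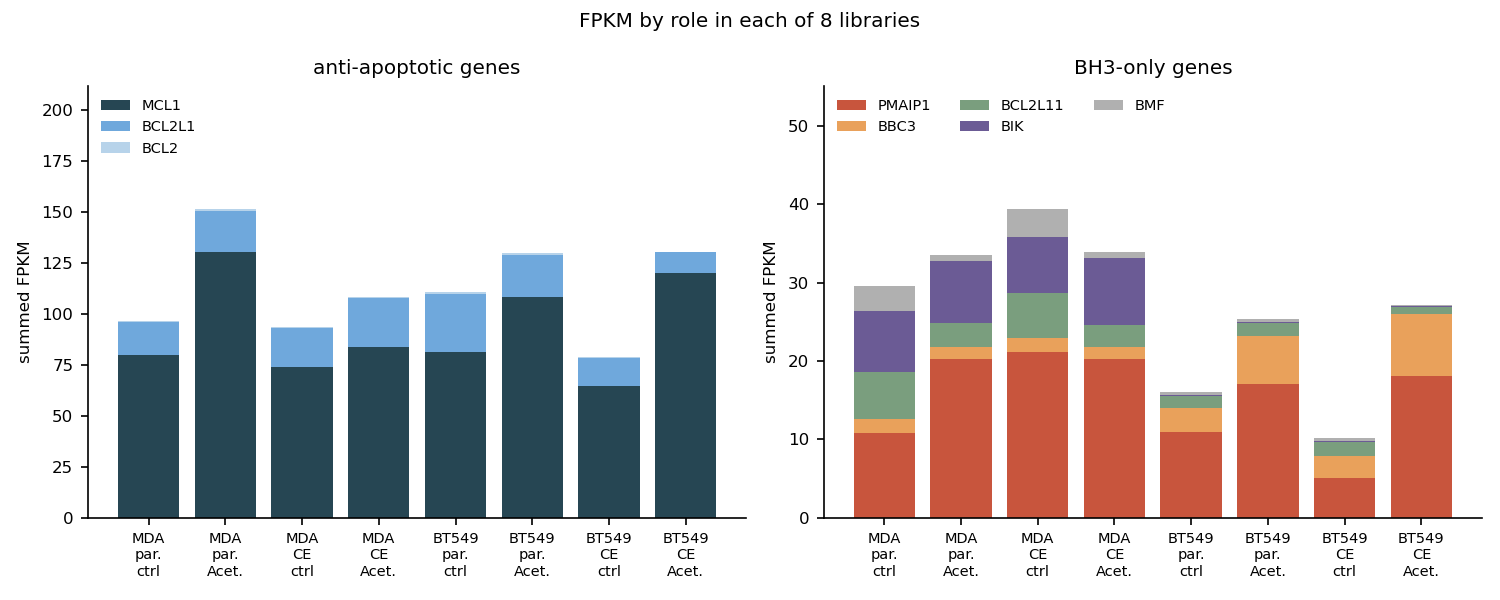
Summed FPKM of the anti-apoptotic members (left) and the BH3-only members (right) in each library, stacked by gene (ctrl, control; Acet., Acetalax; par., parental). MCL1 fills 73.3% to 91.9% of each left bar, PMAIP1 36.4% to 68.6% of each right bar, and BIK is visible in MDA-MB468 and at most 0.760% of the sum in BT549.

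Acetalax treatment was compared with control over the 4 backgrounds to ask how the drug moves these genes within 6 hours. MCL1 rose, and was the 1 member of 10 called by edgeR's quasi-likelihood test, where 5.00% of all genes tested were called (2.72% higher and 2.27% lower). BMF, BCL2L11 and PMAIP1 had average differences of at least the same size that missed the threshold. In BMF and BCL2L11 1 background, parental BT549, stood apart from the rest. The log2 CPM ratios of PMAIP1 were spread widely, from -0.06 in MDA-MB468 CE to 1.85 in BT549 CE cells. In bulk RNA a shift in the share of cells with a transcript and a shift in its level per cell cannot be told apart. Over all genes edgeR called 536 higher and 448 lower, and with total counts in place of TMM scaling the split was 374 higher and 685 lower.

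MCL1 (chr1:150547032-150552066, hg19), the most abundant guard against BAX and BAK1 here, had 498 CPM in control and 813 CPM in treated parental MDA-MB468 cells, and 461 and 522 CPM in the CE cells of that line. In BT549 the control and treated values were 506 and 674 CPM in parental cells and 403 and 747 CPM in CE cells. All 4 treated libraries lay above all 4 controls, as for 1.17% of all genes tested. The log2 CPM ratios of treated to control ran from 0.18 in MDA-MB468 CE cells to 0.89 in BT549 CE cells, and each 95% counting interval lay above 0. Such intervals excluded 0 for 59.8%, 52.7%, 50.5% and 61.5% of all genes in the pairs of parental MDA-MB468, MDA-MB468 CE, parental BT549 and BT549 CE cells. Over the 4 pairs edgeR gave a log2 fold change of 0.64 ± 0.13 (SE; 95% interval 0.33 to 0.94), with an adjusted p of 0.0427. This call is marginal. It was lost when the pair of parental MDA-MB468 (edgeR log2 fold change 0.60, adjusted p 0.188), parental BT549 (0.71, adjusted p 0.0845) or BT549 CE cells (0.51, adjusted p 0.0759) was left out, each time with the same direction. Of all genes tested, 10.7% were higher in the treated library of all 4 pairs, as MCL1 was.

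BCL2L1, the second anti-apoptotic gene by level, went opposite ways in the lines. In MDA-MB468 it was at 67.6 CPM in control and 84.4 CPM in treated parental cells, and at 79.4 and 99.7 CPM in CE cells. In BT549 it was at 119 and 86.1 CPM in parental cells and at 56.8 and 43.7 CPM in CE cells. The treated library was thus the higher one in both MDA-MB468 backgrounds and the lower one in both BT549 backgrounds. Its average edgeR log2 fold change was 0.04 ± 0.15 (SE, 4 pairs; adjusted p 0.888).

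BCL2 had 7.71 CPM in control and 8.09 CPM in treated parental MDA-MB468 cells, and 6.55 and 7.89 CPM in its CE cells. Its values were 16.5 and 10.9 CPM in parental BT549 and 5.57 and 2.81 CPM in BT549 CE cells. As for BCL2L1, treated libraries were lower in both BT549 backgrounds (log2 CPM ratios -0.60 and -0.98) and no lower in MDA-MB468. Over all pairs edgeR gave -0.22 ± 0.22 (SE; adjusted p 0.566).

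Among the BH3-only genes, PMAIP1 (chr18:57567180-57571538, hg19), whose product ties up MCL1 and promotes its degradation, was at 23.5 CPM in control and 44.1 CPM in treated parental MDA-MB468 cells. Parental BT549 cells had 24.0 and 37.3 CPM, and BT549 CE cells 11.0 and 39.6 CPM. MDA-MB468 CE cells, at 46.3 CPM in control and 44.4 CPM after treatment, were already high without the drug. Treated libraries thus lay in a narrow band from 37.3 to 44.4 CPM, whereas the controls spread from 11.0 to 46.3 CPM. Log2 CPM ratios ran from -0.06 (95% counting interval -0.15 to 0.03) to 1.85 (1.72 to 1.98). The edgeR log2 fold change was 0.92 ± 0.28 (SE, 4 pairs), with an adjusted p of 0.0918, whereas DESeq2's adjusted p was 0.0266. DESeq2 called more genes than edgeR for Acetalax, in numbers given under the dependence on processing. Its lower p-values here and below are not separate support.

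Set against its partner, PMAIP1 FPKM was between 7.75% and 28.6% of MCL1 FPKM in the 4 control libraries. In the treated libraries that share was 15.1% in BT549 CE, 15.5% in parental MDA-MB468, 15.8% in parental BT549 and 24.2% in MDA-MB468 CE cells. The share was higher in the treated library of 3 backgrounds, and lower in MDA-MB468 CE cells, which had the highest share of all in control.

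BMF (chr15:40380091-40401093, hg19), a BH3-only gene whose protein is linked to the cytoskeleton, was at 17.4 CPM in control and 4.20 CPM in treated parental MDA-MB468 cells, and at 19.0 and 4.21 CPM in CE cells. In BT549 CE cells it was at 2.62 and 0.534 CPM, from 142 and 27 counts. Parental BT549 cells differed, with 1.92 CPM in control and 2.39 CPM after treatment. In 3 backgrounds the treated library had from 4.13- to 4.83-fold lower BMF CPM, and in the remaining one the counting interval of the log2 CPM ratio, -0.11 to 0.76, included 0. The edgeR log2 fold change of -1.51 ± 0.43 (SE, 4 pairs; 95% interval -2.50 to -0.52) missed the threshold, with an adjusted p of 0.0749. Without the parental BT549 pair it was -2.05, a larger drop that follows from leaving out the 1 pair that went the other way. DESeq2, which called more genes than edgeR for Acetalax, gave an adjusted p of 0.0058 over all 4 pairs.

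BCL2L11 (chr2:111876955-111926024, hg19), the broad binder known as BIM, had 40.0 CPM in control and 20.2 CPM in treated parental MDA-MB468 cells, and 38.5 and 18.8 CPM in the CE cells. BT549 started lower, at 11.0 CPM in parental and 11.9 CPM in CE controls, and was at 10.9 and 6.56 CPM after treatment. The treated level was about 2-fold lower in both MDA-MB468 backgrounds (1.98- and 2.05-fold) and 1.81-fold lower in BT549 CE cells. In parental BT549 cells the log2 CPM ratio was -0.01, and 0.07 after TMM scaling. The edgeR log2 fold change was -0.64 ± 0.19 (SE, 4 pairs; adjusted p 0.0867). DESeq2, with more genes called for Acetalax, gave an adjusted p of 0.0243. It was the 1 member lower in all 4 pairs by total counts, as were 25.7% of all genes tested. In a newer annotation 10.8% of its exon bases lie opposite exons of MIR4435-2HG, a noncoding gene that held 1245 to 3898 counts against 332 to 1945 for BCL2L11. The paper names a directional library kit, but the strand column that was counted is not given. If counts were taken without strand, reads over the shared bases cannot be told apart.

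BBC3 (chr19:47724081-47736023, hg19), a gene known as a p53 target and a potent activator of apoptosis, differed by line. In MDA-MB468 its CPM was 5.88 in control and 5.25 in treated parental cells, and 5.59 and 4.71 in CE cells. In BT549 it was 9.44 and 19.3 in parental cells, and 9.11 and 25.0 in CE cells. The treated BT549 libraries stood above all other libraries, while the counting intervals of both MDA-MB468 log2 CPM ratios included 0 (-0.41 to 0.08 and -0.52 to 0.02). Over all 4 pairs the edgeR log2 fold change was 0.63 ± 0.32 (SE; adjusted p 0.243).

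BIK encodes a BH3-only protein that sits largely at the endoplasmic reticulum. In MDA-MB468 its counts were 362 in control and 368 in treated parental cells, and 304 and 389 in CE cells. The 4 BT549 libraries held 3 to 6 counts each, at or near the floor of 3 counts, and no BT549 response could be read. With Acetalax the edgeR log2 fold change was 0.24 ± 0.23 (SE, 4 pairs; adjusted p 0.520).

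Neither effector was called. BAX was at 56.0, 54.7, 94.5 and 92.2 CPM in the controls of parental MDA-MB468, MDA-MB468 CE, parental BT549 and BT549 CE cells, and at 49.4, 56.5, 99.6 and 83.8 CPM after treatment, in that order. Its log2 CPM ratios ran from -0.18 to 0.08, and the edgeR 95% interval was -0.18 to 0.26 around a log2 fold change of 0.04 (adjusted p 0.818). BAK1 was at 43.3 and 54.4 CPM in parental MDA-MB468 control and treated cells, 38.3 and 52.3 CPM in MDA-MB468 CE cells, 32.4 and 27.9 CPM in parental BT549 cells and 26.8 and 30.5 CPM in BT549 CE cells. BAK1 was thus higher after treatment in 3 backgrounds and lower in parental BT549. Its edgeR log2 fold change was 0.28 ± 0.13 (SE, 4 pairs; adjusted p 0.220).

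**Figure D3:**
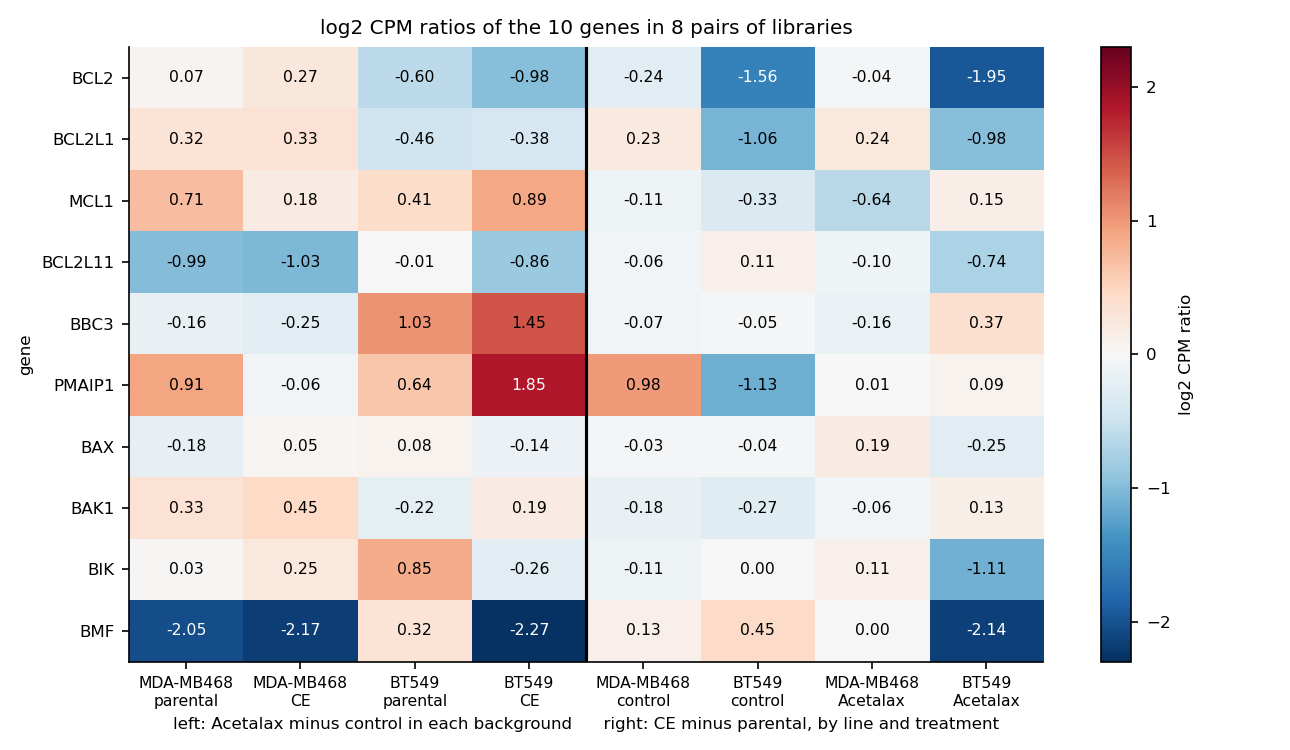
Log2 CPM ratios of the 10 genes in the 4 pairs of Acetalax-treated and control libraries (left) and the 4 pairs of CE and parental libraries (right), red for positive and blue for negative values. The MCL1 row is positive in all 4 left columns, and BMF is at -2.05 or lower in 3 of them. On the right, values of -1 or less occur in BT549 alone, for BCL2, BCL2L1 and PMAIP1 in controls and for BCL2, BMF and BIK (6 and 3 counts) after Acetalax.

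Single pairs were also counted by size. With Acetalax, the number of members at a log2 CPM ratio of 1 or more was 0 in both MDA-MB468 backgrounds, 1 in parental BT549 (BBC3) and 2 in BT549 CE cells (BBC3 and PMAIP1), against 7.42%, 4.71%, 6.67% and 6.78% of all genes in parental MDA-MB468, MDA-MB468 CE, parental BT549 and BT549 CE cells. Ratios of -1 or less were seen for BMF in parental MDA-MB468, for BMF and BCL2L11 in MDA-MB468 CE and for BMF in BT549 CE cells, where 8.79%, 7.16% and 17.9% of all genes were that low, and for no member in parental BT549 (6.41%).

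The difference of the Acetalax response between BT549 and MDA-MB468 was tested directly. BBC3 was the 1 member of 10 called, where 1.78% of all genes tested were called (0.533% higher and 1.25% lower in BT549). The response of BBC3 was larger in BT549 by 1.51 ± 0.27 on the log2 scale (SE, edgeR; 95% interval 0.87 to 2.14), with an adjusted p of 0.0452. Both BT549 pairs were more than 2-fold up (2.05- and 2.74-fold) and both MDA-MB468 pairs slightly down, at log2 CPM ratios of -0.16 and -0.25. The call was lost without parental MDA-MB468 cells (edgeR log2 difference 1.55) and without MDA-MB468 CE cells (1.48). Leaving out any background leaves 1 pair of that line, with no spread within it. Calls from such fits, kept without either BT549 background, therefore carry no weight.

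BCL2L1 and BCL2 had differences of the other sign. For BCL2L1 the edgeR log2 difference, BT549 minus MDA-MB468, was -0.69 ± 0.16 (SE; adjusted p 0.0814), and for BCL2 it was -0.90 ± 0.27 (adjusted p 0.151). DESeq2 called BCL2L1 (adjusted p 0.0197), but it also called more genes than edgeR for this difference, so the edgeR share above is not its background. BBC3, BCL2L1 and BCL2 were the 3 members whose 2 pairs in one line lay opposite to the 2 in the other, a pattern seen in 16.1% of all genes. None passed among BCL2L11, PMAIP1 and BMF (edgeR adjusted p from 0.309 to 0.372), and for BIK, with 3 to 6 counts in BT549, no difference could be read. For BMF the 2 BT549 backgrounds disagreed. Its edgeR log2 difference was 2.44 without BT549 CE cells and -0.11 without parental BT549 cells, each from 1 BT549 pair.

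Parental and CE cells were set against each other for the same response, and edgeR called 0 of the 10 members and 0 of 19693 genes (0.00%), with 91 genes (0.462%) at an unadjusted p under 0.05. DESeq2 also called 0. The intervals were wide. For MCL1 the edgeR 95% interval of the difference, CE minus parental, was -0.68 to 0.71, for PMAIP1 it was -1.30 to 1.61, and for BMF it was -3.11 to 0.59. A response 2-fold lower in CE than in parental cells therefore lies inside the PMAIP1 and BMF intervals.

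CE cells were compared with parental cells of the same line and treatment, the comparison that addresses acquired resistance. No member was called by edgeR over the 4 pairs, against 0.117% of all genes tested. In untreated cells BCL2L1 and PMAIP1 were lower in CE than in parental cells of BT549 and higher in those of MDA-MB468. BCL2, the founding anti-apoptotic gene, was the 1 member lower in CE cells in all 4 pairs, as 11.8% of all genes were. At an unadjusted p under 0.05 there were 2915 genes (14.8%) among all tested and BCL2 among the members.

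In BT549 controls, BCL2 was at 16.5 CPM in parental and 5.57 CPM in CE cells, 2.96-fold lower, and after Acetalax it was 3.86-fold lower in CE cells. In MDA-MB468 the log2 CPM ratios of CE to parental cells were -0.24 in controls and -0.04 after treatment. Nearly all of the difference thus lay in BT549. Over the 4 pairs the edgeR log2 fold change was -0.92 ± 0.35 (SE; 95% interval -1.77 to -0.06), with an adjusted p of 0.316.

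BCL2L1 was likewise lower in BT549 CE cells, 2.09-fold in controls and 1.97-fold after Acetalax, and higher in MDA-MB468 CE cells, 1.18-fold in both controls and treated cells. Its edgeR log2 fold change was -0.36 ± 0.25 (SE; adjusted p 0.524). MCL1 differed by -0.11 in MDA-MB468 controls and -0.33 in BT549 controls on the log2 CPM scale, and by -0.64 and 0.15 after Acetalax. The summed anti-apoptotic FPKM of untreated cells was 96.7 in parental and 93.5 in CE MDA-MB468 cells, and 111 and 78.8 in BT549.

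PMAIP1 separated the untreated CE cells of the lines. Its control CPM was 23.5 in parental and 46.3 in CE MDA-MB468 cells, a log2 CPM ratio of 0.98 (95% counting interval 0.87 to 1.08), and 24.0 and 11.0 in BT549, a log2 CPM ratio of -1.13 (-1.28 to -0.98). After Acetalax the CE and parental libraries of each line had near equal PMAIP1, with log2 CPM ratios of 0.01 and 0.09. These are single pairs with no replicate check, and over all 4 pairs the edgeR log2 fold change was 0.02 ± 0.32 (SE; adjusted p 0.985).

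Of the remaining members, BBC3 and BCL2L11 differed little in untreated cells, with log2 CPM ratios of CE to parental of -0.07 and -0.05 for BBC3 and of -0.06 and 0.11 for BCL2L11, in MDA-MB468 and BT549. BMF was at 0.13 and 0.45, BAX at -0.03 and -0.04, and BAK1 at -0.18 and -0.27. In untreated BT549, 3 members (BCL2, BCL2L1 and PMAIP1) had a ratio of -1 or less, where 10.2% of all genes were that low, and in untreated MDA-MB468 no member did, against 4.80%. BMF and BCL2L11 differed between treated CE and parental BT549 libraries instead, at -2.14 and -0.74.

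**Figure D4:**
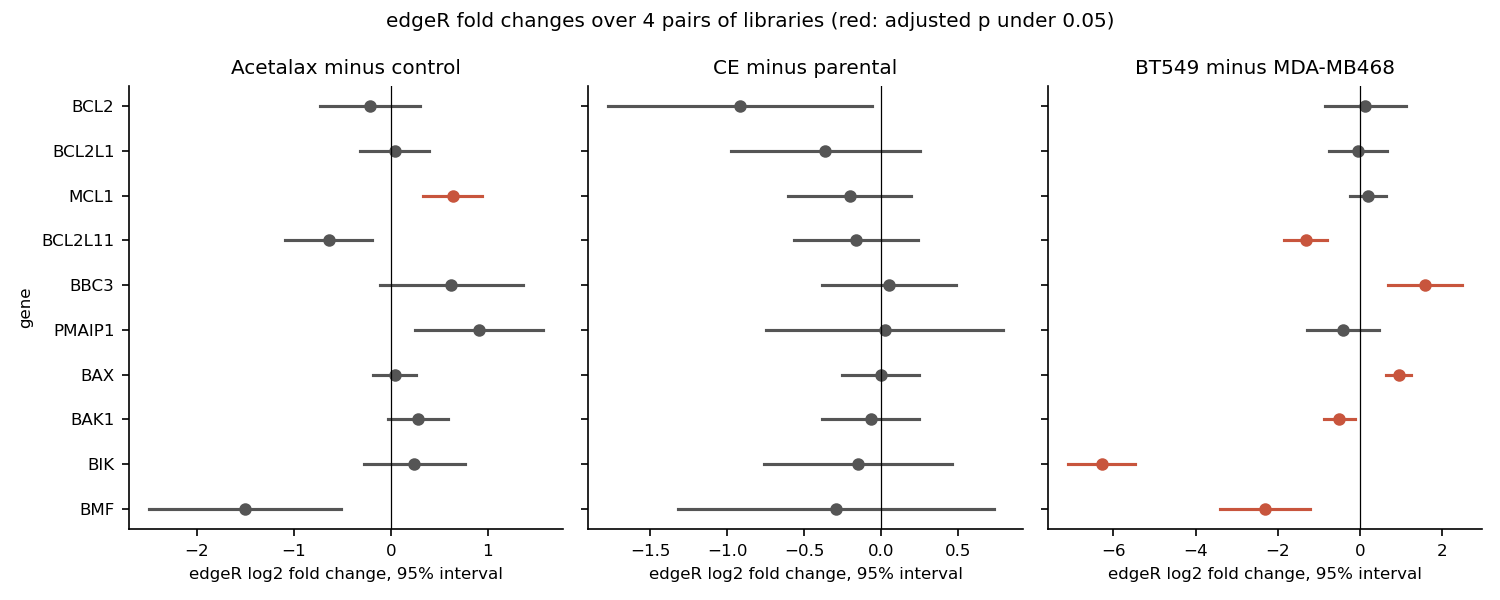
The edgeR log2 fold changes of the 10 genes with 95% intervals over 4 pairs of libraries, for Acetalax against control, CE against parental cells and BT549 against MDA-MB468, with red for an adjusted p under 0.05 and a separate horizontal scale in each panel. MCL1 is red in the left panel, none in the middle and 6 genes in the right panel, where BIK lies at -6.29.

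BT549 and MDA-MB468 differed in 6 of the 10 members, where edgeR called 56.8% of all genes (27.3% higher in BT549 and 29.5% lower), so the family was not distinguished from other genes by this count. BBC3 and BAX were higher in BT549, and BCL2L11, BIK, BMF and BAK1 were lower. The count includes BIK, which passed the filter on low counts through MDA-MB468 alone. The anti-apoptotic genes were not called, with edgeR log2 fold changes of 0.13 for BCL2, -0.04 for BCL2L1 and 0.18 for MCL1. The lines also differ in epithelial and mesenchymal markers, in the sums given above, and the part of this in the member differences was not tested.

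BIK had the largest difference of the members. It stood at 7.44, 7.58, 6.89 and 8.18 CPM in MDA-MB468 parental control, parental treated, CE control and CE treated cells, and at 0.0710, 0.138, 0.0737 and 0.0593 CPM in the same order in BT549. In parental controls the log2 CPM ratio of BT549 to MDA-MB468 was -6.49 (95% counting interval -9.00 to -5.15). A gene that passes the filter through 1 line, as BIK does, had to differ between the lines and its call adds nothing to these values.

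BMF was lower in BT549 by an edgeR log2 fold change of -2.31 ± 0.45 (SE, 4 pairs; adjusted p 0.00541), although the gap was only 1.75-fold between the treated parental cells and 9.03-fold between the parental controls. BCL2L11 was lower by -1.32 ± 0.22 (adjusted p 0.00265, edgeR). BBC3 was higher by 1.58 ± 0.38 (adjusted p 0.0119, edgeR), with log2 CPM ratios of 0.68 and 0.70 in controls and 1.88 and 2.40 after Acetalax.

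The effectors parted. BAX, which waits in the cytosol, was higher in BT549 by 0.94 ± 0.12 (adjusted p 0.00116, edgeR, 4 pairs), and BAK1, which resides in the outer membrane, was lower by an edgeR log2 fold change of -0.50 ± 0.15 (adjusted p 0.0300). The BAK1 call was lost when any 1 of the 4 pairs was left out (edgeR adjusted p 0.0558 to 0.128). The ratio of BAX to BAK1 FPKM was 1.11 and 1.22 in parental and CE MDA-MB468 controls and 2.49 and 2.94 in those of BT549. After Acetalax it was 0.775 and 0.923 in MDA-MB468 and 3.05 and 2.35 in BT549.

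Genes that work with the family were counted from lists by function. For Acetalax, edgeR called 0 of 11 tested among the other BCL2 family genes, 0 of 11 among the apoptosome, caspases and released mitochondrial proteins and 0 of 8 among genes that govern MCL1 turnover, where 5.00% of all genes were called. BCL2L2 (BCL-w), another anti-apoptotic relative, was at an edgeR log2 fold change of 0.29 (adjusted p 0.138), BID at 0.17 (adjusted p 0.285) and BAD at -0.05 (adjusted p 0.855). BCL2A1 and BCL2L10 were below the filter. The medians of the log2 fold changes were -0.07, -0.19 and -0.06 in these lists, against -0.04 over all genes tested.

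For the counts that follow, edgeR called 2.72% of all genes tested higher and 2.27% lower with Acetalax. Single calls in lists this short do not set a list apart. BIRC3, an inhibitor of apoptosis under NF-kB control, was the 1 called of 6 tested IAP genes, at an edgeR log2 fold change of 2.05 ± 0.38 (SE; adjusted p 0.0384). Its log2 CPM ratio was 0.31 in parental BT549 and at least 2.22 in the other backgrounds. Of 12 tested death receptor genes, TNFSF10 (TRAIL) was called lower, at -2.52 ± 0.56 (edgeR adjusted p 0.0465), with a log2 CPM ratio of 1.21 in parental BT549 and BT549 counts between 4 and 15. Of 15 transcription factors known to control BH3-only genes MYC was called higher (0.79 ± 0.12, edgeR adjusted p 0.0323). PPIF (cyclophilin D), a regulator of the inner membrane permeability pore, was the 1 of 9 membrane partners called, at 1.03 ± 0.17 (edgeR adjusted p 0.0362).

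Of 18 p53 target genes, 3 were called higher and 0 lower with Acetalax, where 2.72% and 2.27% of all genes were. They were CDKN1A, the cell cycle inhibitor p21 (edgeR log2 fold change 1.54 ± 0.31, adjusted p 0.0424), AEN, an apoptosis-enhancing nuclease (1.41 ± 0.20, adjusted p 0.0313), and PLK3 (1.14 ± 0.22, adjusted p 0.0405). The list median was 0.15, and 10 of its 18 genes had a positive value. In contrast to BBC3, CDKN1A was higher in both MDA-MB468 backgrounds, at log2 CPM ratios of 2.77 in parental and 0.62 in CE cells. For CE against parental cells 0 genes were called in all 8 lists.

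Between the lines, BID and HRK, both BH3-only genes, were lower in BT549 (edgeR log2 fold changes -1.38 and -1.69, adjusted p 0.004 and 0.0131), as were BOK (-0.92, adjusted p 0.00499), BCL2L2 (-0.62, adjusted p 0.0118) and BCL2L14 (-3.66, adjusted p 0.00348). BNIP3 and BNIP3L, mitophagy receptors related to the BH3-only genes, were higher (1.84 and 1.30, edgeR adjusted p 0.00761 and 0.00348). That made 7 of 11 tested, near the 56.8% of all genes called, and BCL2L14, with 1 to 5 counts in BT549, passed the filter through MDA-MB468 alone.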

How the data were processed

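RNA-seq reads (101 bases, paired) of 8 libraries were aligned to hg19 and counted per gene by the authors with STAR (version 2.7.11b in the submitters' processing notes), and the deposited values are raw counts without normalization. The annotation and strand column used are not given in the sources used here. Of the members, BCL2L1 shares 41.3% of its exon bases with ABALON on the other strand in a newer annotation and BCL2L11 10.8% with MIR4435-2HG (1245 to 3898 counts). ADAMTSL4, opposite 0.691% of the MCL1 exon bases, held 67 to 229 counts, and the other listed genes found to overlap a member held 0 to 3.

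The table has 58154 rows for 55679 identifiers, of which 1392 are listed more than once and were kept once. From the counts, CPM, FPKM (merged exon lengths of GENCODE lifted to hg19) and log2 CPM ratios (pseudocount 0.5 counts) were computed, with 95% Wilson intervals on CPM and exact binomial intervals on ratios that cover counting error only. The total of 42261122 to 54241728 counts puts 3 counts at 0.0553 to 0.0710 CPM.

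Tests were the quasi-likelihood test of edgeR 4.0.16 under R 4.3.3, with TMM scaling and filterByExpr, a Benjamini-Hochberg adjustment over 19693 genes and a threshold of 0.05, blocking on background or on the matching pair, which leaves 3 residual degrees of freedom, or 2 where responses were compared. The tests for Acetalax, for the lines and for the line difference of the response were tried on simulated data. Those that set CE against parental cells were not. Alternatives were DESeq2 1.42.0, other scalings, no filter and leaving out each pair. The members and lists were chosen with earlier results of these data known. All members are named; from each list the called genes (at most 3 each way) or, with none called, the largest with 1 sign in all pairs are eligible, and other BCL2 family genes may all be named.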

Additional observations from a re-analysis of the deposited data

Results flagged for a closer look

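BBC3 was singled out because its Acetalax response differed between the cell lines in a direct test. The edgeR log2 difference, BT549 minus MDA-MB468, was 1.51 ± 0.27 (SE; adjusted p 0.0452), where 351 of 19693 genes were called. BBC3 was higher in the treated library of both BT549 backgrounds, at log2 CPM ratios of 1.03 and 1.45, and lower in both MDA-MB468 backgrounds, at -0.16 and -0.25. No other member was called by edgeR for a difference between the lines or between parental and CE cells in this response. Groups held 1 library each, so no library could be examined as an outlier of its group.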

How the results depend on the processing

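Of the values for single members, 525 were counted as unchanged under an alternative. Of the rest, 15 gained a call, 13 lost one, 35 moved and 32 turned sign. Unchanged test values kept their direction and call. A log2 CPM ratio counted as unchanged if it stayed within its counting interval, and as turned only if that interval excluded 0. Sign turns of ratios whose interval included 0 are therefore not among the 32. BCL2L11 in parental BT549 is such a ratio (-0.01, and 0.07 after TMM scaling). The number of genes called for Acetalax was 984, and it was 3585 without the filter, 2913 with DESeq2, 0 with separate terms for parental or CE cells, 0 without blocking on background and 0 to 554 when a pair was left out (0 without parental MDA-MB468, 263 without BT549 CE, 311 without parental BT549 and 554 without MDA-MB468 CE cells). For CE against parental cells 23 became 446 without the filter, 1010 with DESeq2, 0 in the 4 control libraries and 0 to 10 leaving out a pair (10 without the MDA-MB468 controls). The line difference of the response, 351 genes, became 1632 without the filter and 941 with DESeq2. In alternatives chosen after seeing the data it was 100 to 1360 leaving out a pair: 100 without parental MDA-MB468, 837 without BT549 CE and 1360 without parental BT549 cells. Leaving out a pair there left 1 pair in a line and no spread within it. The parental and CE difference was 3 genes without the filter. Of the 60 ratios, 10 were at least 1 in size, and 5 on the log2(FPKM+1) scale. Without the filter more genes were tested, and without a pair fewer libraries; other causes were not tested.

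The MCL1 call for Acetalax was also lost with separate terms (edgeR adjusted p 0.561 for parental and 0.366 for CE cells) and without the block (0.123); over its alternatives the log2 fold change ran from 0.51 to 0.71. Without the filter BCL2L11, BBC3, PMAIP1 and BMF were called for Acetalax, and BAK1 was not called between the lines.

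The values counted as turned in sign passed no threshold in that setting, except that the BAX ratio named last was not tested. For Acetalax, total counts gave -0.048 for BCL2L1 and -0.050 for BAX, and parental terms gave -0.0034 for BCL2L1. For CE, BAX was 0.0103 with DESeq2 size factors, 0.0107 without the filter and 0.0101 with DESeq2, and PMAIP1 was -0.0074 with total counts. In the 4 controls BCL2L11 was 0.031, BBC3 -0.058, PMAIP1 -0.067 and BMF 0.285. Between the lines BCL2 was -0.032 with total counts, and for the parental and CE difference it was 0.016 without the filter. Leaving out a pair, log2 fold changes for Acetalax ran from -0.064 to 0.205 for BCL2L1. For CE they ran from -0.109 to 0.148 for BBC3, -0.274 to 0.382 for PMAIP1, -0.044 to 0.032 for BAX and -0.559 to 0.170 for BMF. Between the lines they ran from -0.202 to 0.563 for BCL2, -0.328 to 0.250 for BCL2L1, -0.0134 to 0.302 for MCL1 and -0.609 to 0.029 for PMAIP1. For the line difference of the response they ran from -0.0228 to 0.526 for MCL1, -0.373 to 0.803 for BIK, -0.106 to 2.44 for BMF and -0.0214 to 0.216 for BAX. The BAX ratio in BT549 CE cells, whose counting interval lay below 0, was 0.018 with TMM scaling. The tests blocked on the background or on the matching pair of libraries, and a block on replicate numbers could not be fitted because the labels carry none.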

Other observations

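ATF3 is a stress-induced transcription factor of the list of BH3-only gene regulators. It was the 1 of 15 genes of that list called for a different Acetalax response between the lines. Of all genes tested, 1.78% were called (0.533% higher in BT549). ATF3 was picked out after its values were seen. Its edgeR log2 difference, BT549 minus MDA-MB468, was 2.28 ± 0.32 (SE; adjusted p 0.0296). ATF3 was at 31.9 CPM in control and 124 CPM in treated parental BT549 cells, and at 22.9 and 131 CPM in BT549 CE cells. In MDA-MB468 it was at 20.7 and 27.9 CPM in parental cells and at 20.7 and 15.4 CPM in CE cells. BBC3 and ATF3 thus both had their 2 highest values in the treated BT549 libraries.

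Summed over the BH3-only members, FPKM was 29.5 in control and 33.6 in treated parental MDA-MB468 cells, 39.3 and 33.9 in MDA-MB468 CE cells, 16.0 and 25.4 in parental BT549 cells, and 10.2 and 27.1 in BT549 CE cells. Relative to the summed anti-apoptotic FPKM, the BH3-only sum was 30.6% in control and 22.2% in treated parental MDA-MB468 cells, and 42.1% and 31.3% in MDA-MB468 CE cells. In BT549 it was 14.4% and 19.5% in parental cells, and 13.0% and 20.7% in CE cells. The share was thus lower after treatment in both backgrounds of MDA-MB468 and higher in both of BT549, a description from 1 library per condition with no test.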
